A study of Mus musculus with 15 samples.

Results

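The RNA that came down with tagged ribosomes from the uninjured mouse kidney was compared with the RNA left behind. The comparison used 6 of the 15 arrays of the series, chosen by their labels alone: the 3 arrays of the day 0 ribosome-bound fraction (arrays 1 to 3) and the 3 arrays of the day 0 unbound fraction (arrays 4 to 6). The genotype label of all samples is the Col1a1-eGFPL10a transgene, which places a green fluorescent version of the ribosomal protein L10a under control of the promoter of collagen 1α1. The source name of both groups also reads WT, and what that refers to is not said; the genotype label was followed. Both groups were of strain C57/129sv, of both sexes, between postnatal days 14 and 300, and had a sham operation, with the kidney taken on day 0. The bound samples are labelled as pericytes and periarterial fibroblasts of the kidney and the unbound samples as kidney medulla. The series as a whole asks how well messages of kidney pericytes are enriched by translating ribosome affinity purification (TRAP), and it also holds kidneys with an obstructed ureter, of which the day 5 arrays are used below for comparison. No animal without the tag is among the samples used here, so pull-down without the tag was not measured. Nothing in the labels ties the arrays of a group to different animals, so the p-values cover only the spread among these samples, which may be technical.

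In TRAP the tagged ribosome is pulled out of a tissue lysate with an antibody, and the mRNAs it is translating come with it, so the bound fraction reports on the cells in which the promoter is active. Stromal cells of the kidney wrap capillaries and arterioles, lay down the interstitial matrix, set vessel tone and, after injury, are a source of scar-forming myofibroblasts. Values below are log2 of normalized signal, given for the bound arrays in the order 1, 2, 3 and for the unbound arrays in the order 4, 5, 6. Differences are bound minus unbound on the log2 scale ± standard error, each fold is the larger over the smaller mean, and adjusted p-values are from limma with the Benjamini-Hochberg method over all genes tested. A gene passed when its adjusted p was under 0.05. Lists of genes are described by how many members passed and by the median difference of their members. Over all genes tested 4.81% were higher and 4.1% lower, with a median of -0.13, and the counts are to be read beside these. Whether a list differs from all genes was not tested. Where a group's mean lay at or under the brightest negative control probe set of its arrays, the fold is a bound, written as at least that fold, and where putting such genes at their bound moved the median of a list by over 0.1, that second median follows in brackets. Signals of different probe sets are not comparable with each other, so levels are compared only within a gene.

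Bound arrays correlated with each other across genes at 0.938 to 0.951, unbound arrays at 0.965 to 0.973, and arrays of different fractions at 0.918 to 0.940. Array 6 was deposited brighter than the rest, with a median intensity of 160.6 against 35.8 to 53.3, and its spiked hybridization controls averaged 12114 against 4781 to 5776. A control probe set for 18S ribosomal RNA read 13.5 to 13.9 in the bound and 10.2 to 11.4 in the unbound arrays. The ratio of the 5′ to the 3′ Gapdh control lay between 0.375 and 0.565 with both fractions spread over that range. Xist, transcribed from the inactive X chromosome of females, read 8.66 to 9.84 in the bound and 6.07 to 6.64 in the unbound arrays, without overlap. Its difference was 2.80 ± 2.29, with an adjusted p of 0.484 in limma. Of the Y-linked genes, Eif2s3y read 9.25 to 9.60 and 10.09 to 10.39, Uty 4.40 to 5.27 and 5.29 to 6.05, and Kdm5d, with overlapping arrays, 6.26 to 7.74 and 5.92 to 6.75, with adjusted p of 0.875, 0.804 and 0.916. The p-values of these sex-linked genes use the spread within all 5 groups of the series. They therefore do not show that the day 0 fractions are alike in these genes. The part of ribosomal RNA, brightness or sex in the differences below was not tested, except by the settings named.

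Of 16864 genes tested, 811 (4.81%) were higher and 691 (4.1%) were lower in the bound fraction, 8.91% together. All 811 higher and 690 of the 691 lower genes, Inha being the exception, had groups of 3 arrays that did not overlap, which was so for 36.8% of all genes tested. The median difference over all genes was -0.13. By the fitted differences 312 of the higher genes differed at least 4-fold and 37 at least 16-fold, against 156 and 3 (Trim30d, Map3k7cl and Rapsn, whose bound means lay at the controls, with another Trim30d probe set at 0.47) of the lower genes. The unbound mean of 61 higher genes and the bound mean of 109 lower genes lay at or under the negative controls. With 1 array left out the counts of higher and lower genes were 659 and 428 without array 1, 452 and 276 without array 2, 660 and 482 without array 3, 380 and 140 without array 4, 463 and 173 without array 5, and 502 and 217 without array 6. Without the 4 bright arrays of the series, among them array 6, 230 genes were higher and 83 lower. Of the called genes 353 higher and 97 lower kept their call whichever single day 0 array was left out. Wherever a gene named below did not, or lost its call under another setting, this is said in its paragraph. The exceptions are Cadps2, Cdc42se2, Ppp2r2c, Cenph and C130073F10Rik, for which calls under other settings are not given.

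**Figure D1:**
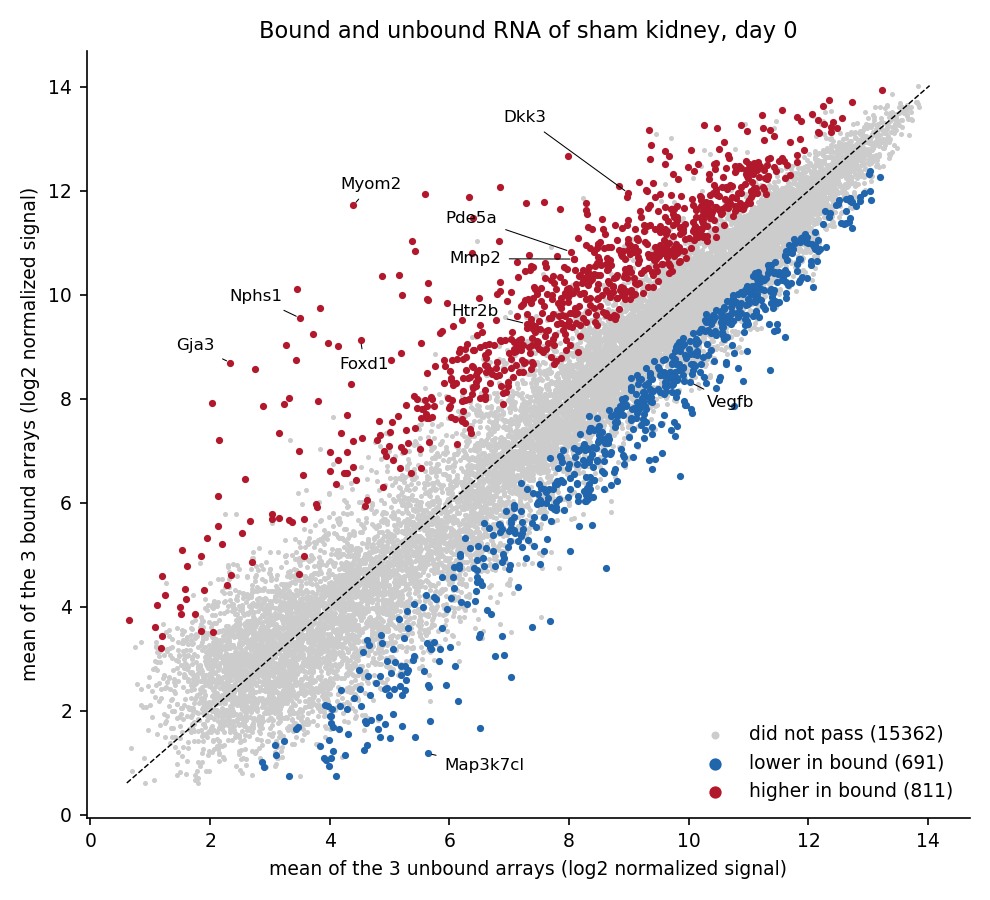
Each point is 1 of 16864 genes, placed by its mean log2 normalized signal on the 3 unbound (x axis) and the 3 bound arrays (y axis). The 811 genes higher in the bound fraction are red, the 691 lower ones blue, and the dashed line marks equal means, so that the distance from it shows the size of the difference.

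Stromal markers were higher in the bound fraction, and so were those of podocytes, the glomerular epithelial cells that form the filtration slit. Of the tested members 10 of 16 fibroblast markers were higher, with a median difference of 1.64, 11 of 16 pericyte and smooth muscle markers with a median of 1.92, 2 of 7 mesangial and juxtaglomerular markers (Itga8 and Fhl2) with a median of 1.38, and 11 of 14 podocyte markers with a median of 3.19. None of these lists held a lower gene. In bulk RNA, more cells of a type and more RNA per cell cannot be told apart. Col1a1, whose promoter drives the tag, read 11.54, 11.59 and 11.70 in the bound and 8.95, 9.04 and 9.56 in the unbound arrays. That is a difference of 2.43 ± 0.19 (5.38-fold, adjusted p = 8.63e-05), with every bound array above every unbound one. Rpl10a, the ribosomal protein that the transgene fuses to the tag, stood at 13.59, 13.39 and 13.27 against 13.36, 13.27 and 13.53. Its groups overlapped, with a difference of 0.03 ± 0.18 and an adjusted p of 0.934. Pdgfrb, the receptor for platelet-derived growth factor that marks pericytes, read 10.92, 11.53 and 11.59 against 8.62, 9.64 and 9.82, a difference of 1.98 ± 0.32 (3.95-fold, adjusted p = 0.00344). The related Pdgfra of interstitial fibroblasts read 11.87, 12.22 and 12.29 against 10.64, 11.06 and 11.12, a difference of 1.19 ± 0.27 (2.27-fold, adjusted p = 0.0202). Leaving out 1 array ended the call of Itga8 (any of the 6), Fhl2 (array 2 or 4) and Pdgfra (array 2, 3, 4 or 5), with adjusted p then 0.0502 to 0.12. Itga8, Fhl2 and Pdgfra did not pass under 1 or more other settings, namely the bright arrays left out, probe sets averaged and median centring (adjusted p 0.0848 to 0.15).

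Few markers of tubules and immune cells passed, though most had negative differences, and those of tubules were measured in the bound fraction too. Differences were negative for 14 of 15 proximal tubule, 13 of 13 loop and distal tubule and 15 of 16 collecting duct markers. They were also negative for 12 of 14 macrophage and 9 of 10 lymphocyte markers, where the median over all genes tested was -0.13. None of 15 proximal tubule, 8 urothelial, 14 macrophage, 9 nerve, 9 bone and 2 erythroid markers passed, with median differences of -0.85, -1.08, -0.58, -0.06, -0.21 (0.00) and -1.26. Without adjustment, limma's p was under 0.05 for 1, 5, 3, 0, 1 and 1 of them, and for 4233 of all 16864 genes tested. Lower were Calb1 among 13 markers of the loop and distal tubule, Elf5, Foxi1 and Atp6v0d2 among 16 of the collecting duct, Cd79b among 10 of lymphocytes, and Fabp4 among 4 of fat cells. These 6 lower markers differed by -2.13 to -1.26. Of 16 endothelial markers Eng, Vwf and Cldn5 were higher, and of 7 parietal epithelial markers Ncam1 was higher and Pax8 lower. Umod, which encodes the most abundant protein of normal urine and is made in the thick ascending limb, read 13.23, 13.61 and 13.75 in the bound and 13.53, 13.54 and 13.76 in the unbound arrays. Its values overlapped, with a difference of -0.08 ± 0.22 and an adjusted p of 0.855. Slc34a1, the phosphate transporter of the proximal tubule, a cortical segment, read 10.06, 9.14 and 10.91 against 11.70, 10.21 and 11.43, also overlapping (-1.07 ± 0.77, adjusted p = 0.419). Podocyte and proximal tubule messages, which belong to the cortex, were thus measured in samples whose unbound fraction is labelled as medulla. The call did not survive the loss of 1 array for Calb1 and Foxi1 (any of the 6), Elf5, Atp6v0d2 and Pax8 (array 1, 2, 4, 5 or 6), Cd79b (array 4 or 5), Fabp4 (array 1, 4, 5 or 6), Eng (array 2, 4, 5 or 6) and Vwf (array 4 or 6) (adjusted p 0.0513 to 0.161). Calb1, Elf5, Foxi1, Atp6v0d2, Cd79b, Fabp4, Eng, Vwf and Pax8 did not pass under 1 or more other settings, namely the bright arrays left out, probe sets averaged, median centring, day 0 normalized alone, only the day 0 groups fitted, a brightness covariate and no filter (adjusted p 0.0504 to 0.599). Probe sets with a difference of the opposite sign were found for Calb1 (1 of 4, reaching 0.02).

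The 3 bound arrays differed in which cells they showed most. Summed over the podocyte list, normalized signal was 72619, 41580 and 38333 in bound arrays 1, 2 and 3, against 10690 to 11029 in the unbound arrays. Array 1 thus had the highest podocyte sum, and it also had the lowest pericyte and smooth muscle sum, 25408 against 35205 and 34790. Its collecting duct sum of 13014, against 23900 and 30924, and its macrophage sum of 2718, against 6489 and 8926, were the lowest of the 3. Fibroblast sums were close to each other, at 49729, 49531 and 50968, and stood at 14139 to 18116 in the unbound arrays. The striated muscle sum followed the order of the podocyte sum, at 8715, 5408 and 3892 against 982 to 1022, although only Myom2 and Myl7 were higher and Myoz2 lower among its 28 members tested, and 8 members, among them skeletal Acta1 and Ckm, were at the negative controls in both fractions. The mean log2 signal of this list was 4.45 to 4.92 in the bound and 4.39 to 4.70 in the unbound arrays. Its sum thus rests on its brightest members, Myom2 and Myl7, and not on the list as a whole. With 1 array left out the adjusted p rose to 0.0578 to 0.109 for Myl7 (array 5) and Myoz2 (array 1, 3, 4, 5 or 6). Myl7 and Myoz2 did not pass under 1 or more other settings, namely the bright arrays left out, median centring, day 0 normalized alone and only the day 0 groups fitted (adjusted p 0.0501 to 0.125).

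**Figure D2:**
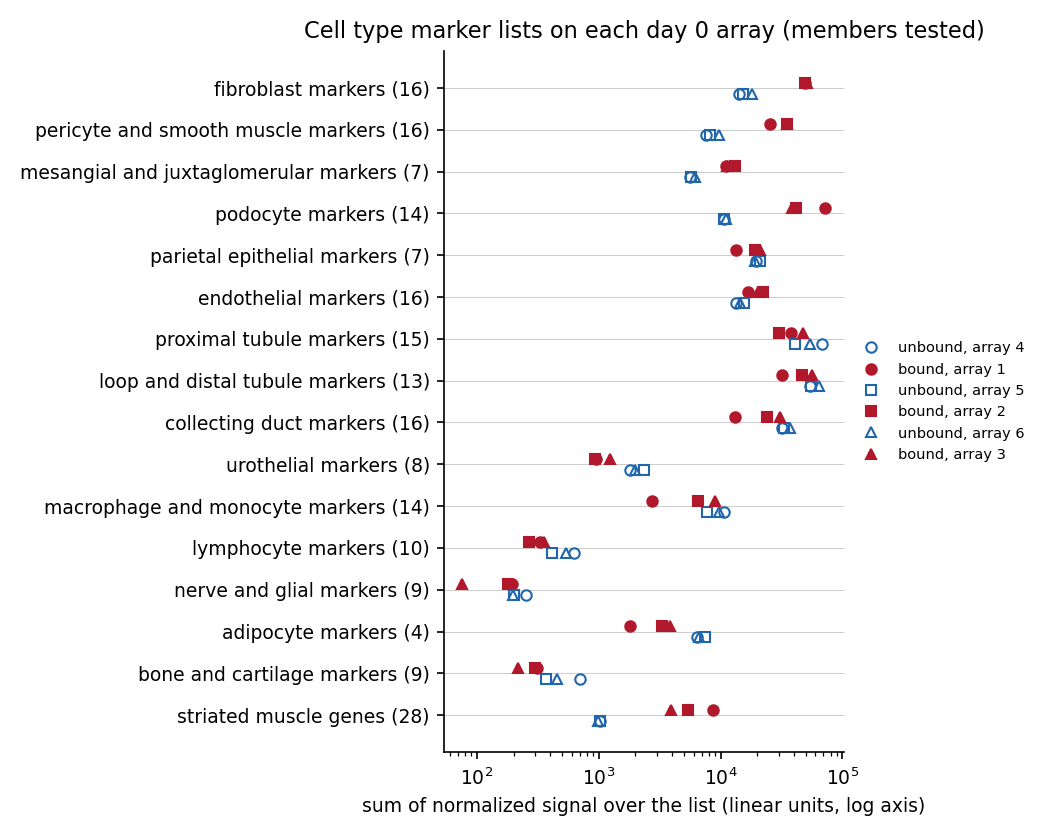
Sums of normalized signal (x axis, log scale) over the tested members of 16 cell type marker lists, with 1 symbol per day 0 array and the number of members in brackets. Fibroblast, pericyte and smooth muscle, and podocyte sums of the bound arrays (red) lie to the right of the unbound arrays (blue), and array 1 (red circle) is highest for podocyte and lowest for collecting duct and macrophage markers.

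Growth factor ligands passed in both directions, whereas every receptor tyrosine kinase that passed was higher in the bound fraction. Of 42 ligands tested 3 were higher (Adm, Vegfd and Angptl4) and 4 lower (Vegfb, Btc, Apln and Igf1), around a median of -0.08. These shares of 7.14% and 9.52% stand beside 4.81% and 4.1% of all genes tested, with a median of -0.13. Whether the ligands as a list differ from all genes was not tested. Adrenomedullin, encoded by Adm, is a vasodilator peptide, and it read 12.05, 11.12 and 10.85 in the bound and 8.85, 9.23 and 8.81 in the unbound arrays. The difference was 2.38 ± 0.37 (5.21-fold, adjusted p = 0.00296), and array 1 was highest. Vegfd, a ligand of lymphatic and vascular endothelial receptors, read 10.86, 10.75 and 10.15 against 8.94, 8.45 and 8.49, a difference of 1.96 ± 0.37 (3.89-fold, adjusted p = 0.00829). Its relative Vegfb went the other way, at 8.28, 8.58 and 8.09 against 10.12, 10.24 and 9.71, a difference of -1.71 ± 0.24 (3.26-fold, adjusted p = 0.00173). Each of these 3 genes had groups that did not overlap. Angptl4, which inhibits lipoprotein lipase, was higher by 1.34 ± 0.36, while the epidermal growth factor family ligand Btc, the peptide Apln and the insulin-like factor Igf1 were lower by log2 differences of -2.62 to -0.89. The Igf1 value came from 1 of 4 probe sets with differences from -0.89 to 0.13, and with day 0 normalized alone another of them was chosen and the difference reversed to 0.026. Hgf, hepatocyte growth factor, came nearest to the threshold among those that did not pass, with 1.74 ± 0.51 and an adjusted p of 0.0513. Dropping 1 array, any of those in brackets, took the adjusted p to 0.0514 to 0.151 for Angptl4 and Btc (array 1, 2, 4, 5 or 6) and Apln and Igf1 (array 1, 3, 4, 5 or 6). Adm, Vegfd, Angptl4, Btc, Apln and Igf1 did not pass under 1 or more other settings, namely the bright arrays left out, probe sets averaged, median centring, day 0 normalized alone, only the day 0 groups fitted and a brightness covariate (adjusted p 0.0557 to 0.953).

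Among 47 receptor tyrosine kinases 9 (19.1%) were higher and none lower, with a median of 0.49 (0.28). Of all genes tested 4.81% were higher and 4.1% lower, with a median of -0.13. Besides the PDGF receptors, Axl, the receptor for the vitamin K-dependent ligand Gas6, read 10.78, 11.13 and 10.83 in the bound arrays and 8.68, 8.78 and 8.64 in the unbound arrays. The difference of 2.21 ± 0.31 (4.64-fold, adjusted p = 0.00152) came from 1 of its probe sets, and the other had a difference of -0.47. Ddr2, a receptor activated by fibrillar collagen, read 10.66, 10.82 and 10.62 against 8.94, 8.89 and 8.98. It differed by 1.76 ± 0.32 (3.39-fold, adjusted p = 0.00647), and its values within a fraction lay within a narrow range. Ntrk2, a neurotrophin receptor, and Ptk7, a pseudokinase of the planar polarity pathway, were higher by 1.85 ± 0.49 and 2.98 ± 0.85, at least 4.16-fold. Without 1 of the arrays the adjusted p was 0.053 to 0.163 for Ntrk2 and Ptk7 (any of the 6). Axl, Ntrk2 and Ptk7 did not pass under 1 or more other settings, namely the bright arrays left out, probe sets averaged, median centring, day 0 normalized alone, only the day 0 groups fitted and no filter (adjusted p 0.0507 to 0.249). Other probe sets had the opposite sign for Ntrk2 (2 of 8, reaching -1.88).

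In the TGF-beta and BMP pathway the members that passed were ligands, binding proteins and receptors without a kinase domain, and all were higher in the bound fraction. They numbered 9 of 51 (17.6%, against 4.81% of all genes tested), with a median over the list of 0.24. Tgfb3, a TGF-beta ligand, read 7.90, 7.95 and 7.73 in the bound and 5.66, 5.70 and 5.85 in the unbound arrays, and no other gene of this pathway had a smaller adjusted p. Its difference was 2.12 ± 0.29 (4.36-fold, adjusted p = 0.00135). Ltbp1, which tethers latent TGF-beta to the matrix, read 12.33, 12.38 and 12.39 against 10.81, 10.64 and 10.89, a difference of 1.59 ± 0.24 (3.00-fold, adjusted p = 0.00264). Within a fraction the arrays of both genes lay close together. The activin subunit Inhba and the growth factor Gdf10 were higher by 2.10 ± 0.44 and 2.24 ± 0.58, Bambi, a pseudoreceptor that dampens the signal, by 1.13 ± 0.32, and Eng, the coreceptor endoglin, by 1.43 ± 0.32. Bmp2 just missed, with 2.17 ± 0.63 and an adjusted p of 0.0513. The adjusted p was 0.0511 to 0.172 when 1 array was dropped for Inhba (array 2 or 4), Gdf10 (array 1, 3, 4, 5 or 6), Bambi (any of the 6) and Eng (array 2, 4, 5 or 6). Ltbp1, Inhba, Gdf10, Bambi and Eng did not pass under 1 or more other settings, namely the bright arrays left out, probe sets averaged, median centring, day 0 normalized alone, only the day 0 groups fitted, a brightness covariate and no filter (adjusted p 0.0513 to 0.238).

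The Wnt genes that passed included several inhibitors of the pathway. Of 50 genes tested 7 (14.0%) were higher and 1 (2.0%) lower, with a median of 0.21 (0.02). The shares over all genes tested were 4.81% and 4.1%. Dkk3, a secreted member of the dickkopf family, read 12.14, 11.97 and 11.76 in the bound and 8.77, 8.84 and 9.36 in the unbound arrays. It was higher by 2.97 ± 0.25 (7.82-fold, adjusted p = 8.63e-05), with a gap of more than 2 log2 units between the groups. Nkd1, an intracellular inhibitor that is itself a Wnt target, read 9.43, 9.94 and 9.59 against 7.59, 7.63 and 7.44, a difference of 2.10 ± 0.35 (4.28-fold, adjusted p = 0.00458). The receptor Fzd2 read 10.34, 9.37 and 10.32 against 7.80, 7.82 and 8.42, a difference of 2.00 ± 0.35 (4.00-fold, adjusted p = 0.0054). Both had groups that did not overlap. The inhibitor Apcdd1, the R-spondin receptor Lgr6 and, named after their values were seen, the secreted inhibitors Dkk2 and Sfrp1 were higher by 1.20 to 1.99. The ligand Wnt7b, known from collecting duct epithelium, was lower by a log2 difference of -1.02 ± 0.28. Leaving out 1 array ended the call of Apcdd1 (array 4), Lgr6 (array 2, 4 or 6), Dkk2 (array 2, 3, 4, 5 or 6), Sfrp1 (any of the 6) and Wnt7b (array 1, 2, 4, 5 or 6), with adjusted p then 0.0532 to 0.143. Nkd1, Fzd2, Apcdd1, Lgr6, Dkk2, Sfrp1 and Wnt7b did not pass under 1 or more other settings, namely the bright arrays left out, probe sets averaged, median centring, day 0 normalized alone, only the day 0 groups fitted, a brightness covariate and a trended prior (adjusted p 0.0503 to 0.198).

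Hedgehog and Notch genes that passed were on the receiving side of these pathways. Of 15 Hedgehog genes Gli3, Boc and Gas1 were higher and none lower, with a median of 0.70 (0.23). Gli3, a transcription factor that ends the pathway, read 9.30, 9.64 and 9.97 in the bound and 7.43, 7.18 and 7.25 in the unbound arrays. The difference was 2.35 ± 0.37 (5.09-fold, adjusted p = 0.0032), and the coreceptors Boc and Gas1 were higher by 1.06 ± 0.24 and 1.02 ± 0.27. The 3 probe sets of Gli3 had differences from 0.12 to 2.88. Gli1, a marker of perivascular progenitors, lay at 4.27, 5.74 and 3.87 against 2.17, 1.97 and 4.85, partly at the negative controls and with overlapping groups (adjusted p = 0.321). Of 24 Notch genes Notch3, the receptor of vascular mural cells, was higher by 2.10 ± 0.45 and Lfng, a glycosyltransferase that modifies the receptors, by 1.54 ± 0.41. Its relative Mfng was lower, with -1.80 ± 0.45. In the Notch list 8.33% were higher and 4.17% lower, near the 4.81% and 4.1% of all genes tested. The call did not survive the loss of 1 array for Boc (array 2, 4, 5 or 6), Gas1 (array 1, 2, 3, 4 or 5), Notch3 (array 4 or 5), Lfng (any of the 6) and Mfng (array 1, 4, 5 or 6) (adjusted p 0.0516 to 0.142). Boc, Gas1, Notch3, Lfng and Mfng did not pass under 1 or more other settings, namely the bright arrays left out, probe sets averaged, median centring, day 0 normalized alone, only the day 0 groups fitted and a brightness covariate (adjusted p 0.0513 to 0.734). The sign was opposite in other probe sets of Boc (1 of 3, reaching -0.60).

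Among the signalling lists the one of cyclic nucleotides, which relay vasodilator signals in smooth muscle, had the highest share of higher genes. In it 11 of 37 tested members were higher and only Pde1b was lower, with a median of 0.40. Pde5a, which breaks down cGMP and is the target of sildenafil, read 10.72, 10.93 and 10.84 in the bound and 7.72, 7.93 and 8.43 in the unbound arrays. It was higher by 2.80 ± 0.31 (6.97-fold, adjusted p = 0.000436), and the bound arrays lay close together. Mrvi1, a substrate of cGMP-dependent kinase that restrains calcium release in smooth muscle, read 10.54, 11.11 and 10.82 against 8.27, 8.45 and 8.53, a difference of 2.41 ± 0.41 (5.31-fold, adjusted p = 0.00505). Adcy3, an adenylyl cyclase, read 8.86, 8.80 and 8.72 against 6.06, 6.18 and 6.56, a difference of 2.53 ± 0.35 (5.76-fold, adjusted p = 0.00158). None of these genes had overlapping groups. Pde3a, a phosphodiesterase inhibited by cGMP, read 7.07, 7.15 and 6.69 in the bound arrays, and with unbound signal near the negative controls the difference was 2.97 ± 0.52 (at least 6.15-fold, adjusted p = 0.00563). The 3 probe sets of Pde3a had differences from 0.28 to 2.97, and the 4 of Adcy3 from 0.44 to 2.53. Npr3, the clearance receptor for natriuretic peptides, read 11.54, 9.71 and 9.62 against 7.87, 7.77 and 7.44, highest on array 1, with 2.60 ± 0.47 (6.05-fold, adjusted p = 0.00676). Parts of the same route, named after their values were seen, were the cGMP-dependent kinase Prkg1 (2.08 ± 0.38) and the guanylyl cyclase subunit Gucy1b1 (1.64 ± 0.41). With 1 array left out the adjusted p rose to 0.0573 to 0.12 for Pde1b (array 4) and Gucy1b1 (array 1, 2, 4, 5 or 6). Pde1b, Pde3a, Npr3, Prkg1 and Gucy1b1 did not pass under 1 or more other settings, namely the bright arrays left out, probe sets averaged and median centring (adjusted p 0.0692 to 0.245).

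A list of G protein-coupled receptors, many of them for vasoactive or lipid ligands, had a median of 0.00. In it 9 of 53 members (17.0%, against 4.81% of all genes tested) were higher and none lower. The higher members included Adgra2 (2.06 ± 0.42) and Mrgprf (1.87 ± 0.51), which are not known as receptors for amines or lipids. Htr2b, a serotonin receptor coupled to calcium release, read 9.65, 9.46 and 9.21 in the bound and 7.13, 7.44 and 7.31 in the unbound arrays, a difference of 2.15 ± 0.35 (4.43-fold, adjusted p = 0.00397). S1pr2, a receptor for sphingosine 1-phosphate, read 8.48, 9.06 and 8.57 against 6.43, 6.74 and 7.20, a difference of 1.92 ± 0.34 (3.77-fold, adjusted p = 0.00564). In both cases the lowest bound array stood above the highest unbound array. Ptgir, the receptor for prostacyclin, was higher by 1.63 ± 0.40, and its ligand's synthase is described with the secreted proteins. Downstream, 8 of 39 regulators of G proteins and small GTPases were higher and Rgs6 and Rem2 were lower, with a median of 0.25 (0.04). Rhoj, a GTPase of the Cdc42 family, read 11.32, 11.41 and 11.08 against 9.48, 9.49 and 9.35, a difference of 1.83 ± 0.20 (3.56-fold, adjusted p = 0.000362). Arhgef17, a guanine nucleotide exchange factor of small GTPases, read 10.90, 12.23 and 12.49 against 8.65, 8.90 and 9.38, with array 1 the lowest of the bound arrays and 2.90 ± 0.55 (7.47-fold, adjusted p = 0.00826). Arhgef25, another such exchange factor found in smooth muscle, was higher by 1.84 ± 0.35. Dropping 1 array, any of those in brackets, took the adjusted p to 0.0518 to 0.13 for Adgra2 (array 2 or 4), Mrgprf and Ptgir (array 1, 2, 4, 5 or 6), Rgs6 (any of the 6) and Rem2 (array 1, 3, 4, 5 or 6). Adgra2, Mrgprf, Ptgir, Rgs6, Rem2, Arhgef17 and Arhgef25 did not pass under 1 or more other settings, namely the bright arrays left out, probe sets averaged, median centring, a brightness covariate and a pseudocount of 16 (adjusted p 0.06 to 0.186). Probe sets with a difference of the opposite sign were found for Arhgef17 (1 of 5, reaching -1.05).

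Guidance molecules of axons and vessels were higher for 6 of 51 members and lower for none, with a median of 0.34 (0.20). The higher share was 11.8%, against 4.81% of all genes tested. Sema3g, a secreted semaphorin, read 12.66, 11.32 and 11.33 in the bound and 8.23, 8.39 and 8.22 in the unbound arrays. Array 1 was its highest, as it was for the podocyte list, and the difference was 3.48 ± 0.51 (11.2-fold, adjusted p = 0.00202). Nrp2, a semaphorin coreceptor, read 10.34, 10.83 and 11.08 against 8.73, 8.90 and 9.02, a difference of 1.87 ± 0.36 (3.65-fold, adjusted p = 0.00882). Robo1, the receptor for Slit, and Unc5c, a receptor for netrin, were higher by 1.84 ± 0.35 and 1.81 ± 0.32. The related Nrp1 did not pass, with 0.71 ± 0.23 and an adjusted p of 0.0803. Nrp2, Robo1 and Unc5c did not pass under 1 or more other settings, namely the bright arrays left out, probe sets averaged and median centring (adjusted p 0.0541 to 0.116). Other probe sets had the opposite sign for Nrp2 (1 of 4, reaching -0.21) and Robo1 (1 of 3, reaching -0.14).

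Cytokine genes that passed were higher without exception, and receptors of the interleukin-6 family were among them. The genes that passed numbered 7 of 49 (14.3%, against 4.81% of all genes tested), with a median over the list of 0.14 (0.00). Osmr, the receptor for oncostatin M, read 10.12, 10.60 and 10.29 in the bound and 8.74, 8.69 and 8.92 in the unbound arrays, a difference of 1.55 ± 0.22 (2.93-fold, adjusted p = 0.00158). Il6ra, the interleukin-6 receptor subunit, read 10.28, 8.88 and 8.54 against 6.74, 6.46 and 6.20, highest on array 1, with 2.77 ± 0.49 (6.80-fold, adjusted p = 0.0058). Cx3cl1, the membrane-bound chemokine that holds CX3CR1-bearing macrophages, read 10.90, 11.01 and 10.54 against 9.00, 9.04 and 9.22, a difference of 1.73 ± 0.32 (3.31-fold, adjusted p = 0.00743). For these 3 genes all bound arrays stood above all unbound ones. The chemokine Cxcl14 and the cytokine Il11 were higher by 1.77 ± 0.41 and 2.76 ± 0.74, at least 3.10-fold. Without 1 of the arrays the adjusted p was 0.0591 to 0.138 for Cxcl14 (array 4 or 5) and Il11 (array 1, 2, 4, 5 or 6). Osmr, Il6ra, Cx3cl1, Cxcl14 and Il11 did not pass under 1 or more other settings, namely the bright arrays left out, probe sets averaged, median centring, day 0 normalized alone, only the day 0 groups fitted, a brightness covariate and a pseudocount of 16 (adjusted p 0.0557 to 0.25). The sign was opposite in other probe sets of Cx3cl1 (1 of 4, reaching -0.21).

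**Figure D3:**
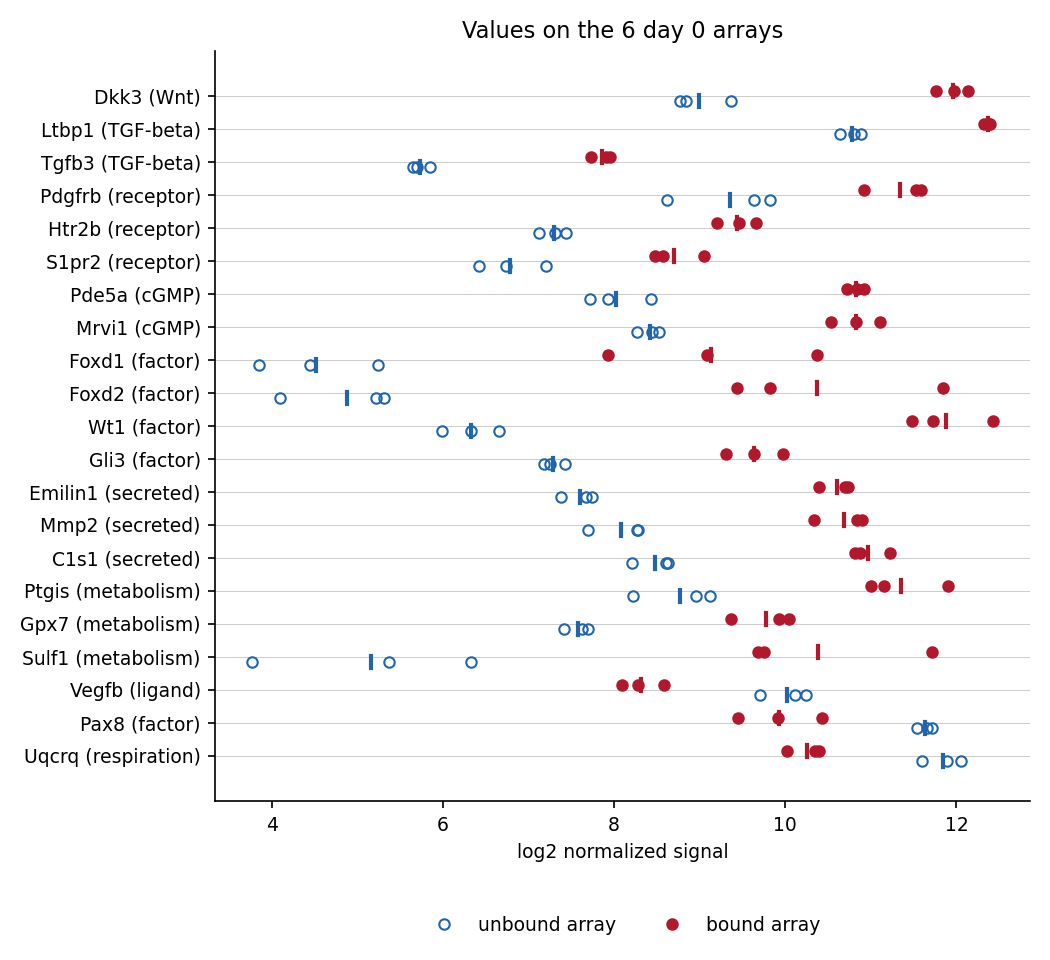
Log2 normalized signal (x axis) of 21 genes, each with its role in brackets, on the 3 bound arrays (filled red) and the 3 unbound arrays (open blue), with a vertical line at each group's mean. For every gene shown the groups do not overlap, and Vegfb, Pax8 and Uqcrq have the lower values in the bound arrays.

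Transcription factors of the stromal and mesenchymal lineage were higher for 19 of 79 members and lower for Meox1 and Barx2, with a median of 0.52 (0.36). Foxd1, the factor of embryonic renal stroma and also of podocytes, read 10.38, 9.09 and 7.93 in the bound and 5.25, 3.85 and 4.44 in the unbound arrays. Despite a wide spread among bound arrays the groups were apart, with 4.62 ± 0.59 (24.5-fold, adjusted p = 0.000989). Foxd2, its paralog, read 11.84, 9.82 and 9.44 against 5.21, 4.09 and 5.32, a difference of 5.49 ± 0.56 (45.0-fold, adjusted p = 0.000256). The other Foxd2 probe set had a difference of 0.67. Wt1, which is needed for podocyte identity and appears in both the mesenchymal and the podocyte list, read 12.42, 11.72 and 11.49 against 6.65, 5.99 and 6.33, a difference of 5.55 ± 0.35 (46.9-fold, adjusted p = 2.46e-05). All 3 were highest on array 1, the array with the highest podocyte sum, and the part of podocyte RNA in their values was not tested. Tcf21, a factor of stroma and podocytes, read 12.75, 12.38 and 12.01 against 9.73, 10.30 and 10.23, a difference of 2.29 ± 0.36 (4.91-fold, adjusted p = 0.00324). Repressors were among the higher factors too. Snai1, a driver of epithelial to mesenchymal transition, read 8.43, 9.26 and 8.57 against 5.88, 6.16 and 5.69, with 2.84 ± 0.48 (7.17-fold, adjusted p = 0.00476). Hic1, a marker of quiescent mesenchymal progenitors, read 9.22, 9.28 and 8.40 against 5.96, 6.26 and 6.29, with 2.79 ± 0.49 (6.93-fold, adjusted p = 0.00564). Myocd, the coactivator of smooth muscle genes, was higher by 2.41 ± 0.65. The adjusted p was 0.057 to 0.123 when 1 array was dropped for Meox1 (any of the 6), Barx2 (array 1, 2, 4, 5 or 6) and Myocd (array 1, 3, 4, 5 or 6). Meox1, Barx2, Tcf21, Snai1, Hic1 and Myocd did not pass under 1 or more other settings, namely the bright arrays left out, probe sets averaged, median centring, day 0 normalized alone, only the day 0 groups fitted and a brightness covariate (adjusted p 0.0526 to 0.144).

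Factors of the epithelial lineage were not higher for any of 42 members and lower for 6, with a median of -0.71. Pax8, which is needed to form the nephron, read 9.45, 9.91 and 10.43 in the bound and 11.54, 11.71 and 11.65 in the unbound arrays. Its groups were apart, with -1.70 ± 0.39 (3.25-fold, adjusted p = 0.02), while its other probe set had a difference of 0.79. The remaining lower members, Elf5 and Foxi1 of the collecting duct, Irx1, Ovol2 and, named after its values were seen, Klf5, had differences of -2.09 to -1.16. Hox genes, which set position along the body axis, did not pass for 25 of 31 members, with a median of -0.11. Hoxa11, Hoxc8 and Hoxc4 were higher by 1.49 to 2.15 and Hoxd3, Hoxb4 and Hoxb9 lower by log2 differences of -1.14 to -0.94. Of 37 nuclear receptors, with a median of -0.13, the orphan receptor Nr6a1 read 8.85, 9.35 and 9.64 against 7.38, 7.36 and 7.56, a difference of 1.85 ± 0.37 (3.60-fold, adjusted p = 0.0107). The estrogen receptor Esr1 was higher by 0.93 ± 0.22, and Esrra, a regulator of mitochondrial genes, and Nr2c1 were lower, with -1.26 ± 0.29 and -1.07 ± 0.28. In each direction 9.68% of Hox genes and 5.41% of nuclear receptors passed, against 4.81% higher and 4.1% lower of all genes tested. Of 22 immediate early genes, with a median of 0.28, Ier3 (1.57 ± 0.21) and Egr1 (1.07 ± 0.21) were higher, or 9.09%. Leaving out 1 array ended the call of Pax8, Elf5, Klf5 and Hoxc8 (array 1, 2, 4, 5 or 6), Foxi1 (any of the 6), Irx1 and Esr1 (array 2, 4 or 5), Ovol2 (array 2, 3, 4, 5 or 6), Hoxa11 (array 2 or 4), Hoxc4 (array 4 or 5), Hoxd3 (array 1, 2, 3, 5 or 6), Hoxb4 and Esrra (array 1, 4, 5 or 6), Hoxb9 (array 2 or 6), Nr2c1 (array 1, 2, 3, 4 or 5) and Egr1 (array 4), with adjusted p then 0.0513 to 0.15. Pax8, Elf5, Foxi1, Irx1, Ovol2, Klf5, Hoxa11, Hoxc8, Hoxc4, Hoxd3, Hoxb4, Hoxb9, Nr6a1, Esr1, Esrra, Nr2c1 and Egr1 did not pass under 1 or more other settings, namely the bright arrays left out, probe sets averaged, median centring, day 0 normalized alone, only the day 0 groups fitted, a brightness covariate, a trended prior and no filter (adjusted p 0.0501 to 0.599). Probe sets with a difference of the opposite sign were found for Klf5 (1 of 3, reaching 0.79), Nr6a1 (1 of 5, reaching -0.31), Esrra (1 of 2, reaching 0.17) and Nr2c1 (1 of 5, reaching 0.68).

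Among the secreted proteins the lists of elastic fibres, laminins and collagens had the highest shares of higher genes. Among glycoproteins of elastic fibres and matrix 27 of 61 were higher and none lower, with a median of 1.19. Emilin1, a protein at the interface of elastin and microfibrils, read 10.70, 10.74 and 10.39 in the bound and 7.38, 7.67 and 7.74 in the unbound arrays. The difference was 3.01 ± 0.26 (8.06-fold, adjusted p = 8.63e-05). Loxl1, an enzyme that crosslinks elastin, read 10.53, 10.72 and 10.39 against 7.27, 7.47 and 7.33, a difference of 3.19 ± 0.39 (9.12-fold, adjusted p = 0.000741). Fbln1, a fibulin of the same fibres, read 10.71, 10.21 and 10.09 against 7.15, 6.72 and 7.55, a difference of 3.20 ± 0.45 (9.16-fold, adjusted p = 0.0017). More than 2 log2 units separated the groups of each of these genes. Mfap5, a microfibril protein, varied more, at 8.45, 6.39 and 7.20 against 5.00, 2.61 and 4.97 with 3.16 ± 0.67 (8.93-fold, adjusted p = 0.014). Tnxb, a tenascin of connective tissue, was higher by 2.74 ± 0.69, and Mfap4, nearest to the threshold among those that passed, by 2.39 ± 0.67. The call did not survive the loss of 1 array for Tnxb (array 2, 3, 4, 5 or 6) and Mfap4 (array 1, 3, 4, 5 or 6) (adjusted p 0.0547 to 0.162). Mfap5, Tnxb and Mfap4 did not pass under 1 or more other settings, namely the bright arrays left out, probe sets averaged, median centring, day 0 normalized alone, only the day 0 groups fitted, a brightness covariate and no filter (adjusted p 0.0503 to 0.144).

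Of 40 collagen genes 15 were higher and only Col24a1 lower, whose signal was at the negative controls in both fractions, with a median of 0.98 (0.66). Col1a2, the partner chain of Col1a1, read 12.80, 12.78 and 12.83 in the bound and 10.38, 10.37 and 10.79 in the unbound arrays, a difference of 2.29 ± 0.18 (4.89-fold, adjusted p = 8.63e-05). Col6a2, a chain of the beaded microfibrils around cells, read 10.58, 10.97 and 10.65 against 8.42, 8.43 and 8.62, a difference of 2.25 ± 0.30 (4.75-fold, adjusted p = 0.00117). Col6a3, another chain of that collagen, read 9.96, 10.62 and 11.02 against 7.88, 8.38 and 8.74, a difference of 2.20 ± 0.33 (4.59-fold, adjusted p = 0.00228). Values of Col1a2 and Col6a2 were tight inside a fraction, while those of Col6a3 spread over about 1 log2 unit. The 3 probe sets of Col1a2 had differences from 0.34 to 2.33. The fibril-associated Col14a1 was higher by 2.17 ± 0.47. Of 10 laminin chains 4 were higher and none lower, with a median of 1.30. Lama2, the chain of muscle and mesenchymal basement membrane, read 10.04, 10.35 and 10.78 against 8.16, 8.03 and 8.37, a difference of 2.21 ± 0.26 (4.61-fold, adjusted p = 0.00059). Lamc3 read 8.65, 8.65 and 9.41 against 6.70, 6.24 and 6.99, a difference of 2.26 ± 0.37 (4.79-fold, adjusted p = 0.00364), and Lama4 and Lamb2 were higher by 1.52 ± 0.43 and 1.25 ± 0.28. Of 36 proteoglycans, with a median of 0.27, Dcn, Gpc6, Prelp and Bgn were higher and none lower. The higher share was 11.1%, against 4.81% of all genes tested. The small leucine-rich proteoglycan Bgn read 13.20, 13.27 and 13.23 against 12.32, 12.48 and 12.36, a difference of 0.85 ± 0.16 (1.80-fold, adjusted p = 0.00756). Its relative Dcn read 12.72, 10.61 and 11.07 against 9.07, 7.72 and 8.88, a difference of 2.91 ± 0.53 (7.52-fold, adjusted p = 0.00692), although its other probe set had a difference of -0.02. With 1 array left out the adjusted p rose to 0.0504 to 0.152 for Col24a1 (array 1, 3, 4, 5 or 6), Col14a1 (array 4 or 5), Lama4 (array 2, 3, 4, 5 or 6), Lamb2 (array 3, 4, 5 or 6), Gpc6 (array 2, 4, 5 or 6) and Prelp (any of the 6). Col24a1, Col14a1, Lama4, Lamb2, Dcn, Gpc6, Prelp and Bgn did not pass under 1 or more other settings, namely the bright arrays left out, probe sets averaged, median centring, day 0 normalized alone, only the day 0 groups fitted, a brightness covariate, a trended prior, a pseudocount of 16 and no filter (adjusted p 0.0541 to 0.394).

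Proteases that cut the matrix were also among the higher genes. Among metalloproteases and their inhibitors 14 of 49 were higher and none lower, with a median of 0.85 (0.20). Mmp2, which cuts denatured collagen and basement membrane, read 10.34, 10.89 and 10.83 in the bound and 7.70, 8.28 and 8.27 in the unbound arrays, a difference of 2.60 ± 0.28 (6.09-fold, adjusted p = 0.000362). Mmp23, a membrane-anchored relative, read 12.20, 11.42 and 11.27 against 8.22, 8.31 and 8.33, a difference of 3.34 ± 0.33 (10.2-fold, adjusted p = 0.00022). Mmp3, stromelysin, read 9.20, 9.03 and 8.47 against 6.05, 6.13 and 6.29, a difference of 2.74 ± 0.38 (6.69-fold, adjusted p = 0.00156). No bound array of these genes overlapped with an unbound one. Adamtsl2, a protease-like protein that binds microfibrils, read 10.12, 10.42 and 10.41 against 7.43, 7.61 and 7.74, a difference of 2.72 ± 0.36 (6.61-fold, adjusted p = 0.00129), and Mmp17 was higher by 2.53 ± 0.46. Of 34 serine proteases and serpins 6 were higher, with a median of 0.15. Plat, tissue plasminogen activator, read 11.85, 11.18 and 11.03 against 9.21, 9.37 and 9.18, a difference of 2.10 ± 0.34 (4.27-fold, adjusted p = 0.00347). Serpinb1a, an inhibitor of neutrophil elastase, was the lower member, with -1.37 ± 0.26. Mmp17, Plat and Serpinb1a did not pass under 1 or more other settings, namely the bright arrays left out (adjusted p 0.0525 to 0.0818).

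Some messages of proteins secreted into the interstitial fluid and blood were higher in the bound fraction, and a few were lower. Shares higher and lower were 20.0% and 10.0% in the complement list. They were 16.7% and 0.0% in the insulin-like growth factor binding list. In the list of hormones and vasoactive enzymes they were 7.41% and 0.0%, and 22 of its 27 differences were negative. Of all genes tested 4.81% were higher and 4.1% lower, with a median of -0.13. In the complement list Serping1, C1ra, C1s1 and Masp1 were higher and Cfi and Clu lower, of 20 tested with a median of -0.15 (-0.01). C1s1, a protease of the first complement component, read 11.23, 10.82 and 10.88 in the bound and 8.21, 8.60 and 8.63 in the unbound arrays, a difference of 2.49 ± 0.33 (5.62-fold, adjusted p = 0.00117). C1ra, its partner, read 10.95, 9.66 and 9.61 against 6.91, 6.59 and 7.03, a difference of 3.23 ± 0.44 (9.38-fold, adjusted p = 0.00147). Serping1, the inhibitor of both, read 13.28, 12.94 and 12.95 against 11.57, 11.38 and 11.35, a difference of 1.63 ± 0.24 (3.09-fold, adjusted p = 0.00229). So both proteases and their inhibitor were higher, each without overlap of the groups. Masp1, a protease of the lectin pathway, was higher by 1.87 ± 0.44, and Cfi and Clu were lower, with -2.42 ± 0.63, at least 2.79-fold and -1.16 ± 0.30. Of 12 genes of the insulin-like growth factor binding list, with a median of 0.57, Igfbp5 (0.84 ± 0.21) and Htra1 (1.40 ± 0.32) were higher. Among 27 hormone genes and vasoactive enzymes, with a median of -0.76 (-0.63), the prostaglandin enzymes Ptgis and Ptges were higher and none was lower. Ptgis, prostacyclin synthase, read 11.00, 11.90 and 11.15 against 8.22, 9.12 and 8.96, a difference of 2.58 ± 0.42 (5.98-fold, adjusted p = 0.00395). Ptges, a prostaglandin E synthase, was higher by 1.27 ± 0.34. Dropping 1 array, any of those in brackets, took the adjusted p to 0.0514 to 0.14 for Masp1 and Ptges (array 2, 3, 4, 5 or 6), Cfi (array 4, 5 or 6), Clu (array 1, 2, 4, 5 or 6), Igfbp5 (any of the 6) and Htra1 (array 1, 2, 5 or 6). Masp1, Cfi, Clu, Igfbp5, Htra1 and Ptges did not pass under 1 or more other settings, namely the bright arrays left out, probe sets averaged, median centring, day 0 normalized alone, only the day 0 groups fitted and a brightness covariate (adjusted p 0.0548 to 0.197).

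**Figure D4:**
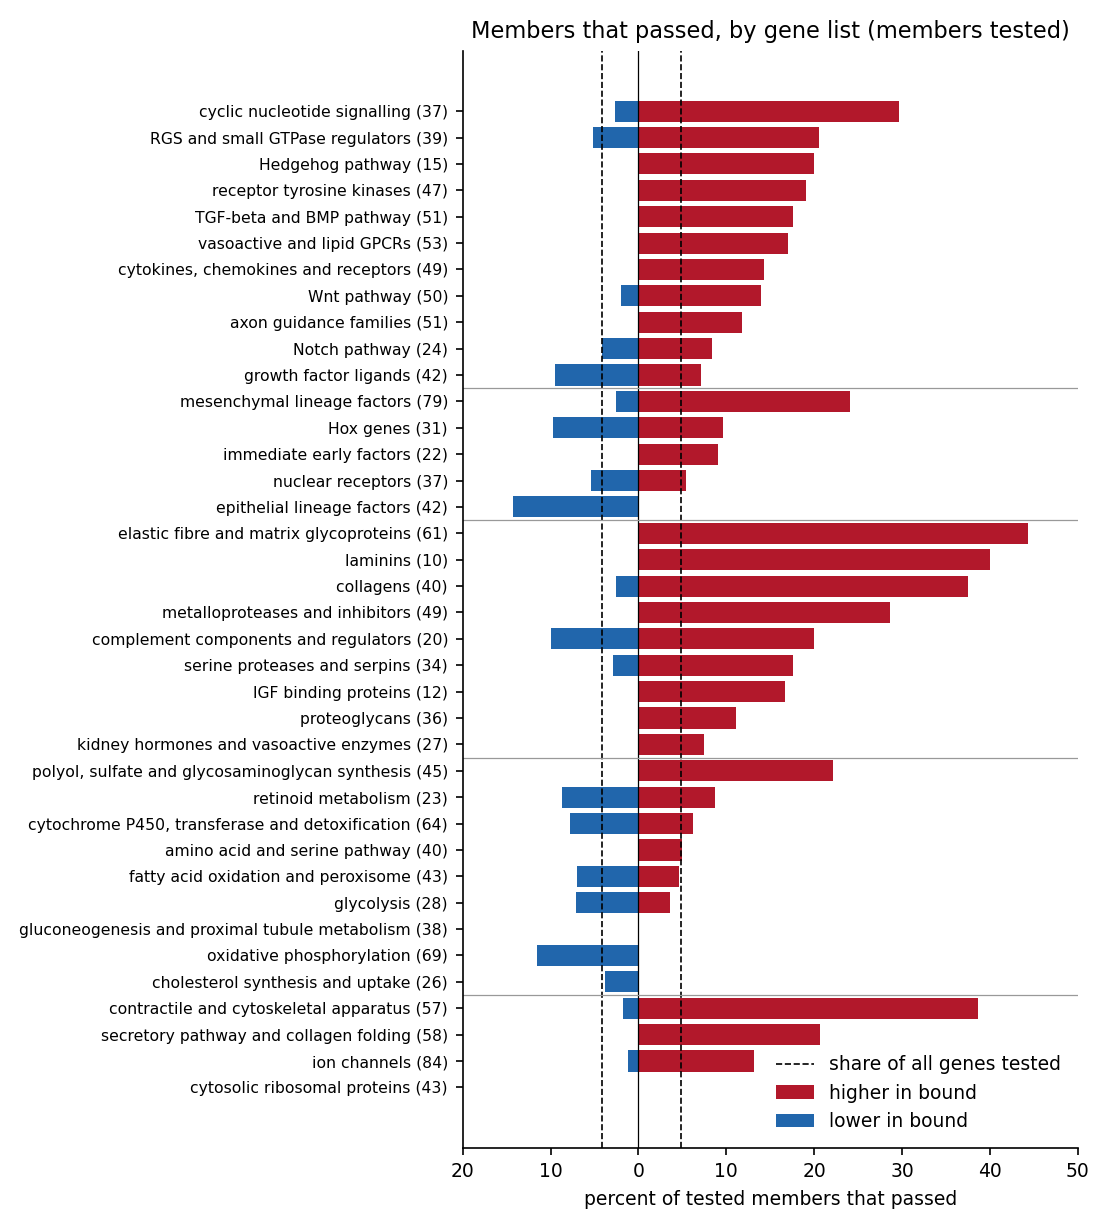
Percent of the tested members of each gene list (number in brackets) that were higher (red, right) or lower (blue, left) in the bound fraction at an adjusted p under 0.05. Dashed lines mark the shares over all genes tested, 4.81% higher and 4.1% lower, and horizontal lines separate signalling, transcription factors, secreted proteins, metabolism and cell machinery.

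Of the lists of metabolism, the one that builds and sulfates matrix sugars had the most higher genes, and the folding machinery of collagen had a like share. In the list of polyol, sulfate and glycosaminoglycan synthesis 10 of 45 were higher and none lower, with a median of 0.25. Sulf1, which removes 6-O-sulfate from heparan sulfate outside the cell, read 11.71, 9.68 and 9.75 in the bound and 5.37, 3.78 and 6.33 in the unbound arrays. It differed by 5.22 ± 0.62 (37.3-fold, adjusted p = 0.000674) and, like the podocyte list, was highest on array 1. The 3 probe sets of Sulf1 had differences from 0.57 to 5.22. Chst1, a sulfotransferase of keratan sulfate, read 12.01, 11.12 and 10.68 against 8.09, 8.69 and 8.38, a difference of 2.88 ± 0.39 (7.38-fold, adjusted p = 0.00135). Chst12 and Chst15, sulfotransferases of chondroitin sulfate, and Dse, which makes dermatan sulfate, were higher by 1.75 to 2.08. The list of the secretory pathway and collagen folding had 12 of 58 higher and none lower, with a median of 0.40. Creb3l1, a membrane-bound transcription factor that raises collagen secretion, read 9.31, 9.17 and 8.83 against 7.12, 6.80 and 6.67, a difference of 2.24 ± 0.28 (4.72-fold, adjusted p = 0.000974). Kdelr3, which returns escaped proteins to the endoplasmic reticulum, read 9.85, 10.20 and 9.98 against 7.38, 7.75 and 7.75, a difference of 2.39 ± 0.31 (5.23-fold, adjusted p = 0.000989). P3h1, a prolyl 3-hydroxylase of collagen, read 10.19, 9.76 and 10.15 against 7.65, 7.86 and 8.46, a difference of 2.04 ± 0.34 (4.13-fold, adjusted p = 0.00435). All 3 had groups apart by at least 1 log2 unit. Its relative P3h3 and the folding helper Fkbp7 were higher by 1.80 ± 0.31 and 2.16 ± 0.33. The other Fkbp7 probe set had a difference of 0.15. Without 1 of the arrays the adjusted p was 0.0547 to 0.0765 for Dse (array 2, 4 or 6). Chst12, Chst15, Dse, P3h3 and Fkbp7 did not pass under 1 or more other settings, namely the bright arrays left out, probe sets averaged and median centring (adjusted p 0.0583 to 0.127).

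Genes of mitochondrial respiration leaned towards the unbound fraction by small amounts. Of 69 members tested 8 (11.6%, against 4.1% of all genes tested) were lower and none higher. A positive difference was found for 2 (Ndufs1 and Cox6a1), and the median was -0.48, against -0.13 over all genes. Uqcrq, a subunit of complex III, read 10.39, 10.35 and 10.02 in the bound and 12.05, 11.89 and 11.60 in the unbound arrays, a difference of -1.59 ± 0.32 (3.02-fold, adjusted p = 0.0104). Sdhb, a subunit of complex II named after its values were seen, read 11.65, 11.79 and 11.92 against 12.81, 12.80 and 12.56, a difference of -0.94 ± 0.18 (1.92-fold, adjusted p = 0.00792). Neither gene had overlapping groups. The complex I subunits Ndufa6, Ndufs4 and Ndufa4 and cytochrome c (Cycs) were lower by log2 differences of -1.23 to -0.97. The adjusted p was 0.0521 to 0.147 when 1 array was dropped for Uqcrq (array 4), Ndufa6 and Ndufs4 (any of the 6) and Ndufa4 and Cycs (array 2, 3, 4, 5 or 6). Uqcrq, Sdhb, Ndufa6, Ndufs4, Ndufa4 and Cycs did not pass under 1 or more other settings, namely the bright arrays left out, probe sets averaged, median centring, day 0 normalized alone, only the day 0 groups fitted, a brightness covariate and no filter (adjusted p 0.0525 to 0.216). Other probe sets had the opposite sign for Uqcrq (1 of 4, reaching 0.14) and Ndufs4 (1 of 4, reaching 0.30).

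Other metabolic lists had few members past the threshold. Shares were 0.0% to 8.7% in either direction, against 4.81% higher and 4.1% lower of all genes tested. In gluconeogenesis and proximal tubule metabolism none of 38 passed with limma, with a median of -0.86. An unadjusted p under 0.05 was found for 8 of them, and for 4233 of all 16864 genes tested. Of 28 glycolytic genes, with a median of -0.26, the neuronal enolase Eno2 was higher, at 10.39, 9.01 and 9.93 against 8.18, 7.68 and 7.66 with 1.93 ± 0.39 (3.82-fold, adjusted p = 0.0117). Pgam2 and Tpi1 of that pathway were lower, with -2.05 ± 0.55 and -0.66 ± 0.17. Of 43 genes of fatty acid oxidation and peroxisomes, with a median of -0.53, the peroxin Pex14 read 9.45, 9.22 and 9.63 against 7.94, 7.75 and 7.73, a difference of 1.63 ± 0.24 (3.09-fold, adjusted p = 0.00225). Cpt1c was higher too, by 1.27 ± 0.35, and Acot1, Pex7 and Acaa2 had log2 differences of -1.67 to -0.72. Among 64 detoxification genes, with a median of -0.77, Gpx7, Cyp1b1, Cyp20a1 and Aox1 were higher and Cyp51, Gstt3, Mgst3, Sod2 and Mt1 lower. Gpx7, a peroxidase of the endoplasmic reticulum, read 10.04, 9.93 and 9.37 against 7.41, 7.69 and 7.63, a difference of 2.20 ± 0.31 (4.60-fold, adjusted p = 0.00151). Cyp1b1, an enzyme of estrogen and retinoid metabolism, was higher by 1.01 ± 0.22, and the glutathione transferase Gstt3 and the mitochondrial superoxide dismutase Sod2 were lower, with -1.04 ± 0.20 and -1.01 ± 0.26. In retinoid metabolism, with a median over 23 genes of -0.32, the retinoic acid responder genes Rarres2 (1.62 ± 0.26), which encodes chemerin, and Rarres1 (5.89 ± 1.14, at least 13.5-fold) were higher, and the alcohol and retinol dehydrogenases Adh7 (-1.99 ± 0.53) and Rdh12 (-1.16 ± 0.33) lower. Cyp51 was the lower member of 26 cholesterol genes (-1.31 ± 0.35), with a median of -0.04, and Slc38a4 and P4ha2 the higher members of 40 amino acid genes (1.88 ± 0.51 and 1.18 ± 0.29), with a median of -0.22. Leaving out 1 array ended the call of Pgam2, Cpt1c, Pex7, Aox1, Sod2, Mt1, Rdh12 and Slc38a4 (any of the 6), Tpi1, Acaa2 and P4ha2 (array 1, 2, 4, 5 or 6), Acot1 (array 2, 4 or 6), Cyp1b1 (array 2 or 4), Cyp20a1 (array 2, 3, 4 or 5), Cyp51 (array 1, 2, 4 or 6), Mgst3 (array 4) and Adh7 (array 2, 3, 4, 5 or 6), with adjusted p then 0.0507 to 0.159. Eno2, Pgam2, Tpi1, Cpt1c, Acot1, Pex7, Acaa2, Cyp1b1, Cyp20a1, Aox1, Cyp51, Gstt3, Mgst3, Sod2, Mt1, Rarres2, Rarres1, Adh7, Rdh12, Slc38a4 and P4ha2 did not pass under 1 or more other settings, namely the bright arrays left out, probe sets averaged, median centring, day 0 normalized alone, only the day 0 groups fitted, a brightness covariate, a trended prior, a pseudocount of 16 and no filter (adjusted p 0.0503 to 0.338). The sign was opposite in other probe sets of Rarres2 (1 of 3, reaching -0.50).

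The contractile apparatus of smooth muscle and pericytes was higher for 22 of 57 members and lower for Smtnl2, with a median of 1.00. Myh11, the smooth muscle myosin heavy chain, read 10.58, 11.99 and 12.72 in the bound and 7.41, 6.91 and 7.51 in the unbound arrays. Array 1 was lowest of the bound arrays, as it was for the pericyte and smooth muscle sum, and the difference was 4.49 ± 0.80 (22.4-fold, adjusted p = 0.00635). Lmod1, which nucleates actin filaments in smooth muscle, read 8.88, 10.04 and 11.08 against 5.34, 5.08 and 5.19, again lowest on array 1 among the bound arrays, with 4.79 ± 0.84 (27.8-fold, adjusted p = 0.00564). Acta2, smooth muscle actin, read 12.40, 12.86 and 12.79 against 10.65, 10.51 and 10.80, a difference of 2.03 ± 0.21 (4.08-fold, adjusted p = 0.000301). The 3 probe sets of Acta2 had differences from 0.11 to 2.03. Flna, an actin crosslinker, read 11.61, 12.37 and 12.46 against 9.10, 9.69 and 9.43, a difference of 2.74 ± 0.29 (6.70-fold, adjusted p = 0.000329). Pdlim4, which links actin stress fibres to signalling proteins, read 10.67, 10.71 and 9.99 against 7.30, 7.52 and 6.96, a difference of 3.20 ± 0.42 (9.20-fold, adjusted p = 0.00117). None of these genes had overlapping groups. Tagln and Des, an actin-binding protein and an intermediate filament, were higher by 2.37 ± 0.22 and 2.62 ± 0.45, the other Des probe set having a difference of -0.09. The call did not survive the loss of 1 array for Smtnl2 (array 1, 2, 4, 5 or 6) (adjusted p 0.0615 to 0.102). Smtnl2, Lmod1, Acta2 and Des did not pass under 1 or more other settings, namely the bright arrays left out, probe sets averaged and only the day 0 groups fitted (adjusted p 0.0521 to 0.181).

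Contractile genes are known targets of serum response factor, which binds the CArG box, so the letters of that motif (CC, then 6 of A or T, then GG, searched on both strands) were looked for in RefSeq promoter windows, from 250 bases before to 50 bases after each gene's start in build GRCm38.p6. The box was in 4 of 59 windows of the contractile list (6.78%). It was in 2.22% of windows of the higher genes, in 1.18% of the lower genes and in 1.38% of those of all tested genes. Of the 4 windows, 2 belonged to contractile members that were higher, among 22 windows of such members (9.09%). Other short motifs were counted too. Their shares in windows of higher genes were 60.1% and 17.4%, against 54.6% and 12.9% of all tested genes. The remaining shares were 8.62% against 9.05%, 4.19% against 5.2%, 12.1% against 14.0% and 33.5% against 37.1%. None of these shares was tested. Myl9 and Cnn2, named after their values were seen, each had a window with a box. Myl9, the regulatory light chain of smooth muscle myosin, read 13.31, 13.30 and 12.99 in the bound and 11.09, 11.33 and 11.31 in the unbound arrays, a difference of 1.96 ± 0.29 (3.88-fold, adjusted p = 0.00228). Cnn2, a calponin that binds actin, read 12.58, 12.71 and 12.25 against 11.27, 11.32 and 10.80, a difference of 1.38 ± 0.22 (2.61-fold, adjusted p = 0.00353). The windows are shown 5′ to 3′ because they hold the motif near a gene that was higher, with the CArG box, which starts 161 bases before the start of Myl9 and 56 before that of Cnn2, in capitals; in Cnn2 the capitals further on mark the letters CCAAT, present in 37.1% of the windows of all tested genes. The Myl9 window is chr2:156775214-156775513 on the plus strand and the Cnn2 window chr10:79988350-79988649 on the plus strand.
Myl9: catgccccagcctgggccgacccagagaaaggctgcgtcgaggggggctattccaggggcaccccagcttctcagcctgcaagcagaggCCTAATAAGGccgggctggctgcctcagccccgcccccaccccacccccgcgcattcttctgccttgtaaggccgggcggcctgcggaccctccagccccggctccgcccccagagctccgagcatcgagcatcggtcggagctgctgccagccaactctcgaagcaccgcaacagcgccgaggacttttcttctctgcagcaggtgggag
Cnn2: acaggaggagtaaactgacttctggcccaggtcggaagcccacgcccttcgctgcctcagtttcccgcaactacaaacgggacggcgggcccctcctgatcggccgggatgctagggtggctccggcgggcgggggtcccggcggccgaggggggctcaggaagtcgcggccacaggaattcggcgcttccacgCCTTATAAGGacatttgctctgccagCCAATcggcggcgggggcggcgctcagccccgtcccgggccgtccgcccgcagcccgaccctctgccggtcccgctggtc
A match is a description of letters and not a site of binding. Cnn2 did not pass under 1 or more other settings, namely the bright arrays left out and median centring (adjusted p 0.064 to 0.0848).

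Ion channels were higher for 11 of 84 members (13.1%, against 4.81% of all genes tested), around a median of 0.05. Kcnmb4 was lower, with signal at the negative controls in both fractions. Scn2b, a sodium channel subunit, read 9.93, 10.37 and 10.80 in the bound and 7.62, 7.82 and 7.74 in the unbound arrays, a difference of 2.64 ± 0.32 (6.24-fold, adjusted p = 0.000755). Kcnd3, a potassium channel of the A-type current, read 10.56, 11.10 and 11.04 against 8.13, 8.61 and 8.64, a difference of 2.44 ± 0.36 (5.42-fold, adjusted p = 0.00225). Kcne4, a potassium channel subunit found in vascular muscle, read 11.30, 11.57 and 11.11 against 8.86, 9.62 and 9.44, a difference of 2.02 ± 0.34 (4.05-fold, adjusted p = 0.00484). Bound and unbound arrays were apart for each. Kcnj8 and Abcc9, which together form the ATP-sensitive potassium channel of pericytes, were higher by 1.50 ± 0.34 and 1.27 ± 0.36, the first named after its values were seen. Gabra4, a subunit of the GABA receptor, read 9.61, 7.93 and 8.19 in the bound arrays against signal at the negative controls in the unbound arrays, a difference of 5.83 ± 0.63 (at least 21.4-fold, adjusted p = 0.000385). Of 43 cytosolic ribosomal protein genes none passed with limma, and their median was -0.11. An unadjusted p under 0.05 was found for 1 of them, and for 4233 of all 16864 genes tested. With 1 array left out the adjusted p rose to 0.0543 to 0.162 for Kcnmb4 (array 2, 5 or 6), Kcnj8 (array 2, 4 or 6) and Abcc9 (array 2, 3, 4, 5 or 6). Kcnmb4, Kcnd3, Kcne4, Kcnj8 and Abcc9 did not pass under 1 or more other settings, namely the bright arrays left out, probe sets averaged, median centring, day 0 normalized alone, only the day 0 groups fitted, a trended prior, a pseudocount of 16 and no filter (adjusted p 0.0529 to 0.3). Probe sets with a difference of the opposite sign were found for Kcnd3 (1 of 4, reaching -0.02).

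Genes that passed and whose groups did not overlap were ranked by the fitted difference, with clone, Rik and predicted gene names left out. The first 10 of this ranking were Myom2, Myl7, Gja3, Ddn, Nphs1, Rarres1, Gabra4, Rhpn1, Rab3b and Wt1. For 6 of them the unbound mean lay at the negative controls and the fold is only a bound, so their order is not established. Myom2, a protein of the sarcomeric M band, read 12.39, 11.68 and 11.10 in the bound and 5.14, 3.74 and 4.29 in the unbound arrays, a difference of 7.33 ± 0.73 (161-fold, adjusted p = 0.00025). Ddn, dendrin, a protein of the podocyte slit, read 12.44, 11.72 and 11.63 against 6.17, 5.12 and 5.47, a difference of 6.35 ± 0.60 (81.3-fold, adjusted p = 0.00016). Gja3, a gap junction protein best known from the lens, read 9.70, 8.34 and 8.04, with unbound values at the negative controls and a difference of 6.36 ± 1.23 (at least 23.3-fold, adjusted p = 0.00883). All of these, and Nphs1 with 10.91, 8.92 and 8.83, had array 1 highest. The 4 probe sets of Myom2 had differences from 0.20 to 8.88, and the 2 of Gja3 from 1.70 to 6.36. Rab3b, a GTPase of regulated secretion, read 12.05, 10.94 and 10.12 against 5.63, 5.67 and 4.85, a difference of 5.65 ± 0.82 (50.4-fold, adjusted p = 0.00191). At the other end of the same ranking were Trim30d, Map3k7cl, Rapsn, Zfp711, Nxnl2, Nek5, Smlr1, Fancd2os, Ikzf1 and Cldn23, of which only Smlr1 had a bound mean above the negative controls, so this order is not established either. The other probe set of Trim30d had a difference of 0.47, and with day 0 normalized alone, when that one was chosen, the gene reversed to 0.455. Rapsn, which anchors acetylcholine receptors, read 7.24, 7.16 and 6.70 in the unbound arrays and 1.69, 3.52 and 2.71 in the bound arrays, at least 7.92-fold lower (adjusted p = 0.000709). Nek5, a kinase of the NIMA family, read 6.03, 5.22 and 5.79 against 1.44, 2.36 and 1.58, at least 3.11-fold lower (adjusted p = 0.000132). Smlr1, a small membrane protein, read 9.24, 8.18 and 8.42 against 5.96, 4.24 and 4.05, with -3.87 ± 0.82 (14.6-fold, adjusted p = 0.014). Dropping 1 array, any of those in brackets, took the adjusted p to 0.0542 to 0.112 for Myl7 (array 5), Smlr1 and Fancd2os (array 2 or 4), Ikzf1 (array 1, 2, 4, 5 or 6) and Cldn23 (array 2, 4 or 5). Myl7, Nphs1, Rarres1, Rhpn1, Rab3b, Trim30d, Zfp711, Smlr1, Fancd2os, Ikzf1 and Cldn23 did not pass under 1 or more other settings, namely the bright arrays left out, probe sets averaged, day 0 normalized alone, only the day 0 groups fitted and a pseudocount of 16 (adjusted p 0.051 to 0.168).

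The higher genes were also compared with all tested genes in length and class. The median genomic span of the higher genes was 39.0 kb, against 20.3 kb for the lower and 21.1 kb for all tested genes, in RefSeq. Long non-coding RNAs were 2.22% of the higher, 7.68% of the lower and 6.95% of all tested genes. The median level over the day 0 arrays was 9.35 for higher, 8.53 for lower and 8.43 for all tested genes. These levels include the bound arrays, by which the higher genes were called. They also come from different probe sets, whose signals are not comparable, so nothing is concluded from them. These shares and medians are descriptions and were not tested.

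Much of this pattern was also present on day 5 after obstruction of the ureter, in other arrays (3 bound and 3 unbound), on which 1075 genes (6.37%) were higher and 1305 (7.74%) lower. Of the 811 genes higher on day 0, 411 (50.7%) were higher on day 5 as well, which is 38.2% of the genes higher on day 5. Of the 691 lower genes, 238 (34.4%) were lower on both days, 18.2% of those lower on day 5. Opposite calls were made for 3 of the higher genes (Cadps2, Cdc42se2 and Ppp2r2c, named after their values were seen) and 13 of the lower ones. For the 3 named genes, calls under other settings are not given. The sign was kept by 749 of the higher and 557 of the lower genes. How many of all genes tested had the same sign on both days was not counted, so these numbers have no background beside them. Dkk3 had a day 5 difference of 1.99 ± 0.25 (adjusted p = 0.00202), Mmp2 of 2.15 ± 0.28 (adjusted p = 0.00229) and Foxd1 of 3.34 ± 0.59 (adjusted p = 0.00591). Median differences on day 0 and day 5 were 3.19 and 0.59 for podocyte markers and 1.19 and 1.11 for elastic fibre and matrix glycoproteins. They were 0.40 and 0.56 for cyclic nucleotide signalling, and -0.71 and -1.58 for epithelial factors. For mitochondrial respiration they were -0.48 and -0.06, and for endothelial markers 0.36 and -1.56. In the test of the change itself, day 5 minus day 0, 3 of 16864 genes passed (0.0178%), and all 3 were lower on day 0. They were Kcnmb4, Cenph and C130073F10Rik, with both day 0 fractions at the negative controls. Leaving out 1 array changed the number of genes passing to 1 without day 0 array 4, 5 or 6 or day 5 array 13 or 15, 5 without array 3, and 7 without array 1, 2 or 10. A difference between the days in any other gene or list was therefore not shown.

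**Figure D5:**
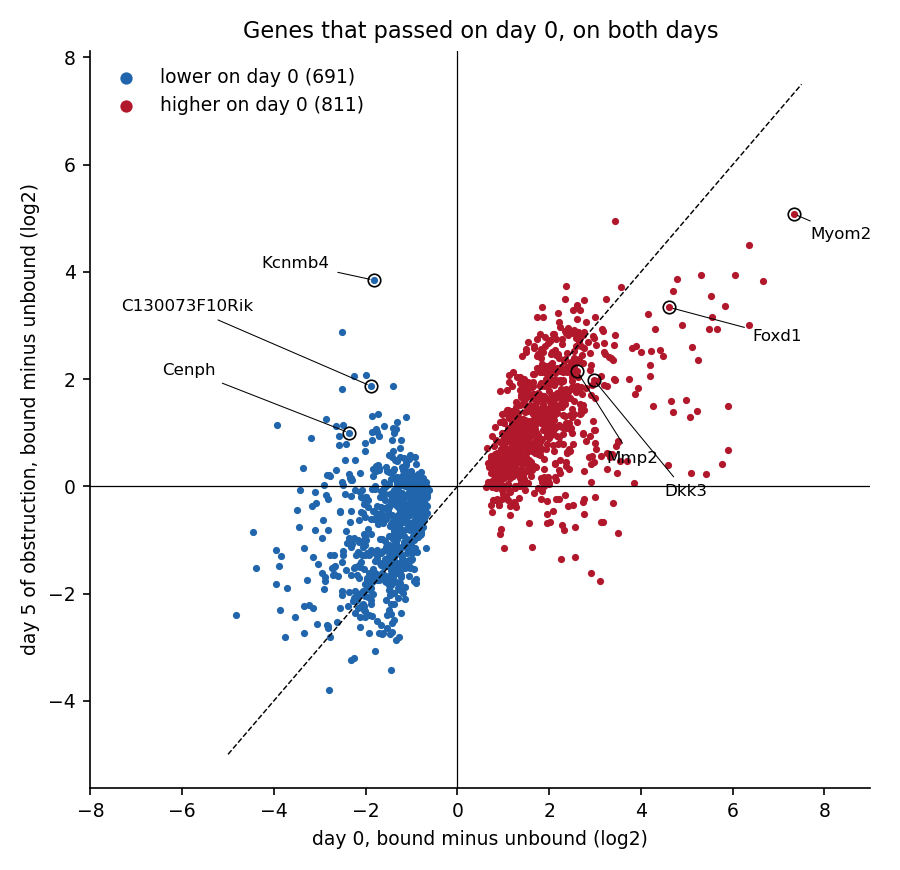
Bound minus unbound log2 difference on day 0 (x axis) and on day 5 of obstruction (y axis) for the 1502 genes that passed on day 0, with equal differences on the dashed line. Most red points (749 of 811) lie above 0 on day 5 and most blue points (557 of 691) below, with 7 named genes circled. The agreement of sign over all genes tested was not counted.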

How the data were processed

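RNA on tagged ribosomes was amplified in 1 round (NuGEN WT-Ovation) and hybridized to 1-colour Affymetrix mouse arrays, per the labels. The deposited values are intensities per probe set on a linear scale; how the authors summarised, background-corrected or scaled them is not given in the sources used here. Samples were grouped by their titles, and 0 columns belonged to no sample.

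Intensities were transformed as log2(value + 1) and quantile normalized over all 15 arrays. Of 45037 probe sets, 34945 had 1 gene, 932 several and 9160 none, and the brightest probe set on average stood for each of 18193 genes. Genes above the 25th percentile on at least 3 arrays (16864) were fitted with limma 3.58.1 (R 4.3.3, lmFit and eBayes) with a mean for each of 5 groups, after a test on simulated data, and p-values were adjusted by Benjamini-Hochberg. The residual spread had 10 degrees of freedom and a prior of 2.324. The number of arrays limits the precision. The negative controls are 27 probe sets, of which the brightest on each day 0 array read 3.92 to 4.57. Where another probe set of a gene had the opposite sign, this is said for the genes in question. Probe sets of the same sign also differed in size, and their ranges are given only for some genes. All tests were two-sided. Promoter windows and gene spans are from RefSeq, and figures were drawn with matplotlib 3.10.9 (Python 3.11.15, pandas 2.3.3).

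The 55 gene lists (1807 of 1990 entries on the array) cover cell type markers, signalling, transcription factors, secreted proteins, metabolism and cell machinery. The members, lists and tests were chosen with earlier results of these data known. Genes were picked by a rule: the 10 largest differences in each direction among genes that passed with groups apart, up to 5 members of each list in each direction, landmark genes, and the members nearest to the threshold. Clone, Rik and predicted gene names were left out of the 10 largest differences. Genes named outside the rule are marked as named after their values were seen. Not every gene picked is described above. Left out were the landmarks Aqp2 (-1.22), Pecam1 (-0.32) and Adgre1 (-0.35), which did not pass, and also some list members that passed. Alternatives varied the filter, pseudocount, normalization, probe set rule, samples fitted, variance prior, array weights, brightness, threshold and left-out arrays (25 settings). Array brightness enters as the mean of the spiked hybridization controls, and the bright arrays left out were 6, 9, 12 and 15.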

Additional observations from a re-analysis of the deposited data

Results flagged for a closer look

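For 3 genes the bound minus unbound difference changed between day 0 and day 5 by the test of the change itself in limma, with p-values adjusted by Benjamini-Hochberg over all genes. Kcnmb4, a subunit of calcium-activated potassium channels, differed by -1.82 on day 0 and 3.85 on day 5, a change of 5.66 ± 0.56 (adjusted p = 0.00441). For C130073F10Rik, a gene known only by its clone name, the change was 3.75 ± 0.45 (adjusted p = 0.0185), from -1.88 to 1.87. Cenph, a protein of the centromere, changed by 3.35 ± 0.42 (adjusted p = 0.0208), from -2.36 to 1.00. In all 3 the means of both day 0 fractions lay at or under the brightest negative control, so the day 0 differences are between values without a measured level.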

How the results depend on the processing

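Of the 1502 genes called, 1399 were still tested with their direction kept with the filter at the 50th percentile, 1474 with day 0 normalized alone and 1475 with probe sets averaged. The number was 1501 with a pseudocount of 16, and all 1502 in the other refits, which included each left-out array. Dropping 1 day 0 array cannot turn the sign of a gene whose groups do not overlap. Dropping a day 5 array leaves the day 0 difference unchanged. Directions kept with left-out arrays are therefore no sign of robustness. Genes higher and lower numbered 811 and 691, against 409 and 436 with median centring, 1811 and 2495 with array weights, 230 and 83 without arrays 6, 9, 12 and 15, and 339 and 89 at an adjusted p under 0.01. Leaving out 1 array of day 0 or day 5 gave 380 to 841 higher and 140 to 765 lower genes, or 380 to 660 and 140 to 482 over the day 0 arrays alone. The higher share of the called genes was 54.0%, 73.5% without arrays 6, 9, 12 and 15, 69.8% to 73.1% without array 4, 5 or 6, and 42.1% with array weights. The cause of these differences was not tested. The change between days passed for 3 genes, and for 17 with the filter at the 50th percentile, 1 with median centring, 59 with the trended prior, 1936 with array weights, 47 with a pseudocount of 16, 1 at an adjusted p under 0.01, and 1 to 7 with 1 array left out. The other settings kept these counts within 1.5 times. Of 234 genes picked for naming that passed, including those not described, 117 kept the call with each single day 0 array left out and 64 under all settings. With day 0 normalized alone, Trim30d (0.455) and Igf1 (0.026) reversed because another of their probe sets then had the highest mean. No paired analysis was possible because the arrays carry numbers 1 to 15 that no groups share. Genes at the negative controls have no measured level, and 14.79% of genes tested had both day 0 means there.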

Other observations

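The following genes outside the lists were picked after their values were seen, because they were higher in the bound fraction, and they are no test of a group. Nes, the intermediate filament nestin known from neural progenitors and from mural cells, read 10.86, 10.28 and 9.63 in the bound and 6.71, 7.02 and 6.79 in the unbound arrays, a difference of 3.42 ± 0.51 (10.7-fold, adjusted p = 0.00217) in limma. Penk, which encodes the opioid precursor proenkephalin, read 10.35, 10.97 and 10.98 against 6.79, 7.62 and 7.57, a difference of 3.44 ± 0.48 (10.9-fold, adjusted p = 0.00148). Larp6, which binds collagen mRNA, read 10.86, 11.68 and 10.76 against 8.27, 8.29 and 7.91, with 2.95 ± 0.54 (7.71-fold, adjusted p = 0.00691). The groups of all 3 were apart. Cygb, a globin of perivascular cells, the secreted protein Ccdc80 and the carboxypeptidase-like Cpxm1 were higher by 2.91 ± 0.59, 2.92 ± 0.28 and 2.77 ± 0.40. Larp6 and Cygb did not pass under 1 or more other settings, namely the bright arrays left out (adjusted p 0.064 to 0.082).

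Picked in the same way were Lmx1b, Srgap1, Dbn1, Actn4 and Nebl. Lmx1b, a transcription factor needed in podocytes, read 8.79, 6.87 and 8.03 in the bound and 3.63, 2.03 and 4.04 in the unbound arrays, a difference of 4.67 ± 0.93 (at least 13.1-fold, adjusted p = 0.0102). Srgap1, a GTPase-activating protein of the Slit and Robo pathway, read 11.61, 9.63 and 9.45 against 6.08, 5.65 and 5.18, with 4.59 ± 0.60 (24.1-fold, adjusted p = 0.00117). Dbn1, the actin-binding drebrin, read 11.65, 13.16 and 13.23 against 7.83, 8.09 and 8.01, with 4.70 ± 0.95 (26.1-fold, adjusted p = 0.0111). Actn4, the actinin mutated in a familial form of glomerular sclerosis, and Nebl, a nebulin relative, were higher by 3.01 ± 0.55 and 5.42 ± 0.99. Of the bound arrays, array 1, which had the highest podocyte sum, was highest for Lmx1b, Srgap1 and Nebl and lowest for Dbn1 and Actn4. Lmx1b, Actn4 and Nebl did not pass under 1 or more other settings, namely the bright arrays left out (adjusted p 0.0583 to 0.0761). Other probe sets had the opposite sign for Nebl (1 of 3, reaching -0.01).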
